A study of Mus musculus with 5 samples.

Results

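Hypoxia-inducible glycolysis genes were described in whole mouse lung as a set of 10 named genes, chosen by name: Slc2a1, Hk1, Hk2, Pgk1, Ldha, Aldoa, Tpi1, Pgam1, Eno1 and Pdk1. A probe set, the group of array probes that reads out a transcript, counted for a gene when the platform annotation mapped it to that gene and to no other, and where a gene had several, the brightest on average stood for it. By this rule 9 of the 10 genes had a probe set, out of 12393 genes on the array with one, and Eno1 was not analysed here. Of these 9 genes, 8 were above the noise floor, a scaled intensity of 276, in all 5 pools. Pdk1 was under it in every pool.

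The study compared 5 conditions with 1 array of pooled lung RNA each. The induced pool came from SM22-tet-BMPR2delx4+ mice on doxycycline (dox), in which the SM22 promoter drives an activator in smooth muscle that, with doxycycline, switches on a dominant-negative BMPR2, a receptor for bone morphogenetic proteins. For the hypoxic pool, FVB/N mice were kept in hypoxia for 4 weeks and were 8 weeks old. Both had a right ventricular pressure of 50 ± 8 mmHg, with the kind of error not stated. Pools at 30 ± 3 mmHg were wild-type FVB/N mice aged 8 weeks, SM22-rtTA mice on doxycycline, which carry the activator alone, and the uninduced pool, SM22-tet-BMPR2delx4+ mice without doxycycline. The titles of the 3 transgenic pools also give 8 weeks, which may be an age or a time on treatment. The number of animals in a pool is not given. With 1 array per condition there is no replicate error and no test, and every difference below is between these pools.

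In glycolysis a glucose transporter and a hexokinase bring glucose into the cell and trap it, a chain of enzymes splits it into pyruvate, and lactate dehydrogenase turns pyruvate into lactate so that the chain can go on without oxygen. When oxygen falls, hypoxia-inducible factor (HIF) binds short DNA elements with the core ACGTG or GCGTG and raises transcription of many of these genes, while pyruvate dehydrogenase kinase 1 holds pyruvate back from the mitochondria. Striated muscle holds large amounts of several of the same enzymes without any lack of oxygen, and brown fat and kidney also hold several of them. In whole-tissue RNA, fewer cells of a type and less RNA per cell cannot be told apart.

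Sequences before the transcription start are shown for the 3 genes that stood at least 1.5-fold higher in the induced than in the uninduced pool (Hk2, Aldoa and Tpi1) and for 2 genes of the same pathway that hold the HIF core motif and were lower in hypoxia than in wild type (Ldha and Pgk1). Each is the 250 bases before an annotated start, 5′ to 3′ on the strand of the gene, from RefSeq on GRCm38.p6, and capitals mark ACGTG or its reverse complement CACGT.
Hk2 (chr6:82774455-82774704, minus strand): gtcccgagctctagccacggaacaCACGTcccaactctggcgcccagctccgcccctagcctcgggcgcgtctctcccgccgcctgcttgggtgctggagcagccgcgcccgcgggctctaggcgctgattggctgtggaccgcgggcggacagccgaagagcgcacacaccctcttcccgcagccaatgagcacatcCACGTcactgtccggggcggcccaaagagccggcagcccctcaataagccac
Aldoa (chr7:126799255-126799504, minus strand): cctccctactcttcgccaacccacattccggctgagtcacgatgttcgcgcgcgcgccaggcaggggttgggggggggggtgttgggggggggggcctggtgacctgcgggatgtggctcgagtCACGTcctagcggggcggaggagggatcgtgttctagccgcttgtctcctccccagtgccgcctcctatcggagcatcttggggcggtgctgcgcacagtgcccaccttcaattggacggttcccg
Tpi1 (chr6:124814159-124814408, minus strand): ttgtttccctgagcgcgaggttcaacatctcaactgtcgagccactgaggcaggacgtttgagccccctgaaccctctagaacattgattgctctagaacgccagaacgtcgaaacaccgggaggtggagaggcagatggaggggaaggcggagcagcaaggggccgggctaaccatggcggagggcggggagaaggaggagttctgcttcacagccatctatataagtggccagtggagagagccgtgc
Ldha (chr7:46845554-46845803, plus strand): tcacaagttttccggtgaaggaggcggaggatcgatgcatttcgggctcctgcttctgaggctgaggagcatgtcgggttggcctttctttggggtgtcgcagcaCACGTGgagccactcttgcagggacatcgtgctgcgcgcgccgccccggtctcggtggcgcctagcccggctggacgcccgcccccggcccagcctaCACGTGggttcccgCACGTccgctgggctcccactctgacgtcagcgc
Pgk1 (chrX:106186850-106187099, plus strand): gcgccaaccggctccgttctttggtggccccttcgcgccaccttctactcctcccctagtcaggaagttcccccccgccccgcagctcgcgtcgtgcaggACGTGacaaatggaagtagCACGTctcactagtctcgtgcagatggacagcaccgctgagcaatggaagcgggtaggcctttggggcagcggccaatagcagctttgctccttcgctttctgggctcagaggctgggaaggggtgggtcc
In the 250-base windows, ACGTG on either strand was found for 6 of the 10 listed genes (Slc2a1, Hk2, Pgk1, Ldha, Aldoa and Pgam1), against 18.5% of the 27025 genes in the table. A gene counted when any of its start windows had a match. By window, 7 of the 17 of the listed genes held ACGTG, against 16.6% of all 32851 windows. GCGTG or its reverse complement CACGC was also found for 6 of the 10, against 30.9% of all genes. With either core 9 of the 10 held a match, against 41.5%, and Tpi1 was the gene with none. The Ldha window shown, that of the first of 2 annotated starts, had 5 matches, including the overlapping pairs that a CACGTG palindrome, the E-box, gives, and the second start had none. Hk2 had matches 226 and 52 bases before its start and Pgk1 150 and 131. For Aldoa 2 of 3 annotated starts had the same match, 126 or 202 bases upstream, and the first start had none. These letters are a description of the windows and not of bound sites.

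The arrays were first checked as lung. All 10 lung epithelial markers, among them surfactant protein C (Sftpc, 10705 to 13366), and all 12 endothelial markers were above the floor in all pools. RNA of other tissues differed between the pools. The summed intensity of the 25 measured skeletal muscle genes was 99540 in the induced pool and 24831 in the hypoxic pool, against 7691 in wild type, 6771 in SM22-rtTA and 9819 in the uninduced pool. All 25 were highest in the induced pool, where none was at the floor, against 8 at the floor in hypoxia, 18 in wild type, 19 in SM22-rtTA and 14 in the uninduced pool. The 17 kidney tubule genes were all highest in wild type, where they summed to 81950, and 14 to 16 of them were at the floor in each other pool. The 11 squamous epithelial genes summed to 16182 in the induced pool and 29508 in the hypoxic pool, against 2475 to 3060 in the normal-pressure pools. As a measure of spread without raised pressure, log2 ratios of SM22-rtTA against the uninduced pool had an SD of 0.34 across the genes that no pool had at the floor. With wild type in the pair, which held the kidney genes, it was 0.63 against the uninduced pool and 0.62 against SM22-rtTA.

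**Figure D1:**
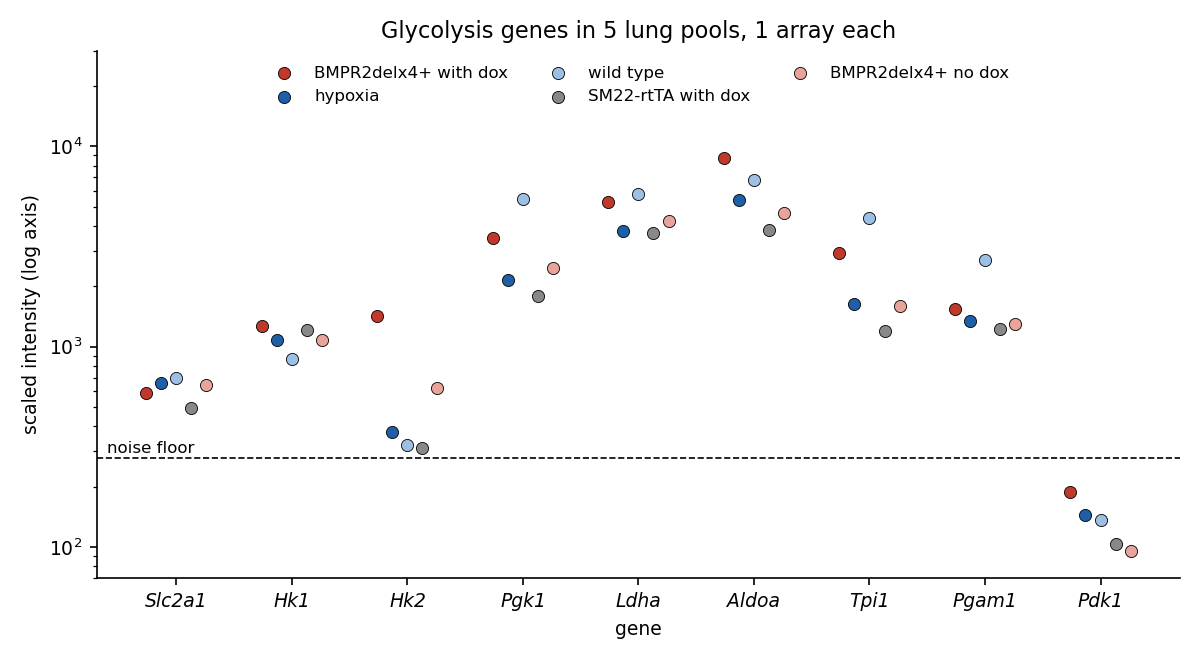
Scaled intensity (log axis) of the 9 genes with a probe set, 1 point per pool; the dashed line is the noise floor of 276. The wild-type point is the highest for Pgk1, Tpi1 and Pgam1, the induced point stands apart for Hk2, and Pdk1 lies under the floor in all pools.

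Across the 8 measured genes, the highest pool was wild type for 5 (Slc2a1, Pgk1, Ldha, Tpi1 and Pgam1) and the induced pool for 3 (Hk1, Hk2 and Aldoa). The lead over the next pool was only 0.08 on the log2 scale for Slc2a1, 0.14 for Ldha and 0.07 for Hk1. Each lead was under 0.34, the SD across genes of the ratio between the transgenic normal-pressure pools, which gives no error for a single gene. Of all 8590 measured genes, wild type was the highest pool for 24.9% and the induced pool for 19.9%. No gene of the 8 was highest in the hypoxic pool, which was the highest for 23.6% of all measured genes. The genes differed in how far they spread over the pools. Slc2a1 and Hk1 spanned 1.42-fold and 1.47-fold between their lowest and highest pool and Ldha 1.57-fold. Pgam1 spanned 2.21-fold, Aldoa 2.28-fold, Pgk1 3.04-fold, Tpi1 3.65-fold and Hk2 4.56-fold.

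Glucose entry was nearly level. Slc2a1, the basal glucose transporter GLUT1, was at 586 in the induced pool and 658 in the hypoxic pool, against 696 in wild type, 491 in SM22-rtTA and 646 in the uninduced pool. The widest step between neighbours in the order of its pools was 0.25 on the log2 scale. SM22-rtTA against the uninduced pool had a log2 ratio of -0.40, where the SD of that ratio across genes was 0.34. That SD gives no error for a single gene. From its lowest pool, SM22-rtTA, to its highest, wild type, Slc2a1 spanned 0.50. Its other probe sets gave another pattern: the next brightest was at 553 in the induced pool and 303 in the hypoxic pool, against 312 in wild type, 276 in SM22-rtTA and 537 in the uninduced pool. On that probe set both BMPR2delx4+ pools were high and hypoxia was level with wild type.

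The hexokinases parted. Hk1, the hexokinase of most tissues and of red cells, was at 1273 in the induced pool and 1075 in the hypoxic pool, against 864 in wild type, 1215 in SM22-rtTA and 1078 in the uninduced pool, and no comparison reached 1.5-fold. Hk2, the insulin-regulated hexokinase of muscle and fat, was at 1416 in the induced pool and 375 in the hypoxic pool, against 323 in wild type, 310.5 in SM22-rtTA and 624 in the uninduced pool. The induced pool was above all others, the uninduced pool second, and the other 3 near the floor. The induced pool was 2.27-fold above the uninduced pool (log2 ratio 1.18) and 4.56-fold above SM22-rtTA (2.19). With the noise floor at the 70th percentile of all values, the ratio to SM22-rtTA was 1.35 on the log2 scale. SM22-rtTA itself was 2.01-fold under the uninduced pool, a gap between normal-pressure pools of a size near that of induction. It was the 1 gene of 8 lower by at least 1.5-fold in that comparison, against 4.51% of all measured genes, and 0 were higher, against 3.00%. Hypoxia was 0.21 above wild type and 0.23 below the mean of the transgenic controls.

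The genes whose pattern over the 5 pools was nearest to that of Hk2, among 5803 genes outside the lists and above the floor in all pools, were Prpf4b, a kinase of pre-mRNA splicing, Des, the desmin filament of muscle cells, the transcription factor Zfhx3, Myoz2, a Z-disc protein of heart and slow muscle, and the Integrator subunit Ints6. Their root mean square difference from Hk2 on the centred log2 scale was 0.29 to 0.32. Des was at 2799 in the induced pool and 1209 in the hypoxic pool, against 658 in wild type, 968 in SM22-rtTA and 1520 in the uninduced pool. Myoz2 was at 1978 in the induced pool and 388 in the hypoxic pool, against 385 in wild type, 383 in SM22-rtTA and 469 in the uninduced pool. Both were highest in the induced and second in the uninduced pool, as Hk2 was. Among the listed genes Aldoa came closest to Hk2, at 0.64.

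Among the enzymes that split the sugar, Aldoa and Tpi1 were higher with induction. Aldoa, the aldolase of muscle and most other tissues, was at 8739 in the induced pool and 5391 in the hypoxic pool, against 6800 in wild type, 3825 in SM22-rtTA and 4658 in the uninduced pool. The induced value was above all other pools, 1.88-fold above the uninduced pool (log2 ratio 0.91) and 2.28-fold above SM22-rtTA. Hypoxia lay between the normal-pressure pools, 0.34 below wild type and 0.35 above the transgenic controls on the log2 scale. Tpi1, triosephosphate isomerase, which interconverts the 3-carbon sugars, was at 2917 in the induced pool and 1635 in the hypoxic pool, against 4384 in wild type, 1200 in SM22-rtTA and 1587 in the uninduced pool. It was 1.84-fold above the uninduced pool with induction (0.88) but under wild type, and in hypoxia it was 2.68-fold under wild type (log2 ratio -1.42) while 0.24 above the transgenic controls.

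The later enzymes followed Tpi1 more closely. Pgk1, phosphoglycerate kinase, which makes the first ATP of the chain, was at 3466 in the induced pool and 2160 in the hypoxic pool, against 5461 in wild type, 1793 in SM22-rtTA and 2456 in the uninduced pool. Pgam1, the phosphoglycerate mutase of tissues other than muscle, was at 1541 in the induced pool and 1334 in the hypoxic pool, against 2711 in wild type, 1228 in SM22-rtTA and 1298 in the uninduced pool. In both genes wild type stood above the other 4 pools, and for Pgam1 those 4 lay within 0.33 of each other on the log2 scale. Of all pairs of measured members, Pgk1 and Tpi1 had the most similar pattern (root mean square difference 0.15 on the centred log2 scale) and Pgk1 and Pgam1 came second (0.22).

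At the end of the pathway, Ldha, the lactate dehydrogenase subunit that favours lactate, was at 5271 in the induced pool and 3778 in the hypoxic pool, against 5795 in wild type, 3680 in SM22-rtTA and 4226 in the uninduced pool. Wild type and the induced pool were high and the other 3 close together. Pdk1, the kinase that shuts pyruvate dehydrogenase, was at 189 in the induced pool and 144 in the hypoxic pool, against 137 in wild type, 103 in SM22-rtTA and 95.6 in the uninduced pool. All these values lie under the floor of 276 and have no order here.

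**Figure D2:**
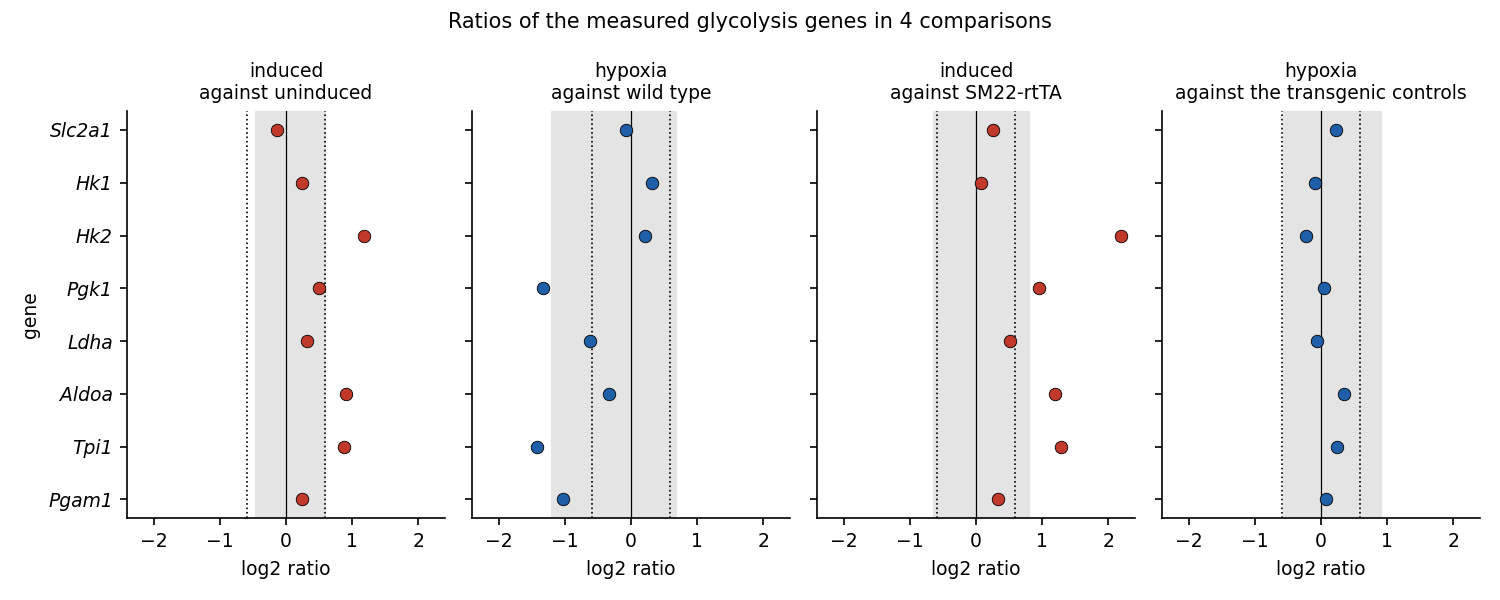
Log2 ratio of each of the 8 measured genes (rows) in 4 comparisons (panels), induced in red and hypoxia in blue; the grey band runs from the 5th to the 95th percentile of all 8590 measured genes and the dotted lines mark 1.5-fold. Hk2, Aldoa and Tpi1 lie right of the line in both panels of the induced pool, while all 8 genes lie inside the lines when hypoxia is set against the transgenic controls.

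The induced pool was set against the uninduced pool to ask what accompanies raised pressure of genetic origin. Higher in the induced pool were Hk2, Aldoa and Tpi1. These were 3 of 8 measured genes at least 1.5-fold above the uninduced pool, where 5.04% of all measured genes were, and 0 of 8 were lower, against 2.57%. Hk2 alone was past 2-fold, which 1.69% of all measured genes were. The median log2 ratio of the 8 was 0.41, against 0.00 over all measured genes. Hk2 and Aldoa were also above all 3 normal-pressure pools, which 3.26% of all measured genes were, whereas Tpi1 was under wild type. Against SM22-rtTA, which was also on doxycycline, 4 of 8 were higher (Hk2, Tpi1, Aldoa and Pgk1), against 9.72% of all measured genes, and 0 lower, against 6.11%, with a median of 0.73. Only Hk2 and Aldoa of these 4 were above all normal-pressure pools as well, against 6.71% of all measured genes. Both comparisons share the induced array.

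Muscle sugar and energy enzymes were also higher in the same pool. Of 8 measured muscle sugar and energy enzymes, 7 were at least 1.5-fold above the uninduced pool. Eno3, the muscle enolase, was at 4392 in the induced pool, against 288 in the uninduced pool, a log2 ratio of 3.93. The muscle phosphofructokinase Pfkm was at 2469 against 450 (2.46), the muscle mutase Pgam2 at 1815 against 325 (2.48), and the creatine kinase Ckm at 10428 against 799 (3.71). For Pgam1, the counterpart of Pgam2, the log2 ratio was 0.25. The insulin-regulated glucose transporter Slc2a4 of muscle and fat was at 1036 against 446 (1.22), where Slc2a1 had a ratio of -0.14.

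Most listed markers of muscle and brown fat were also higher in the induced than in the uninduced pool. All 25 measured skeletal muscle genes and 15 of 18 cardiac muscle genes were at least 1.5-fold above the uninduced pool, with median log2 ratios of 2.91 and 1.36, both lower bounds, since 14 of the skeletal and 7 of the cardiac genes were at the floor in the uninduced pool. The cardiac genes summed to 43854 in the induced pool, against 15114 in the uninduced pool. Of 6 measured brown fat genes 5 were higher, with a sum of 10615 against 1801, and Ucp1, the uncoupling protein that defines brown fat, at 1600 in the induced pool against the floor in the uninduced one. Brown fat genes were also high in wild type, with a sum of 6403 and Ucp1 at 797. The part of muscle or fat RNA in the higher Hk2, Aldoa and Tpi1 was not tested. In the hypoxic pool the skeletal muscle genes summed to 24831 and Acta1, skeletal actin, was at 5064. Aldoa was at 5391 there and Hk2 at 375, against transgenic controls of 3825 and 4658 for Aldoa and 310.5 and 624 for Hk2. In wild type, where the skeletal muscle genes summed to 7691, Aldoa was at 6800 and Hk2 at 323. Where Hk2 was 2.01-fold lower in SM22-rtTA than in the uninduced pool, 3 of the 25 muscle genes were lower by at least 1.5-fold and 0 higher. Of all measured genes, 4.51% were lower and 3.00% higher. The 14 muscle genes at the floor in the uninduced pool could not count as lower.

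**Figure D3:**
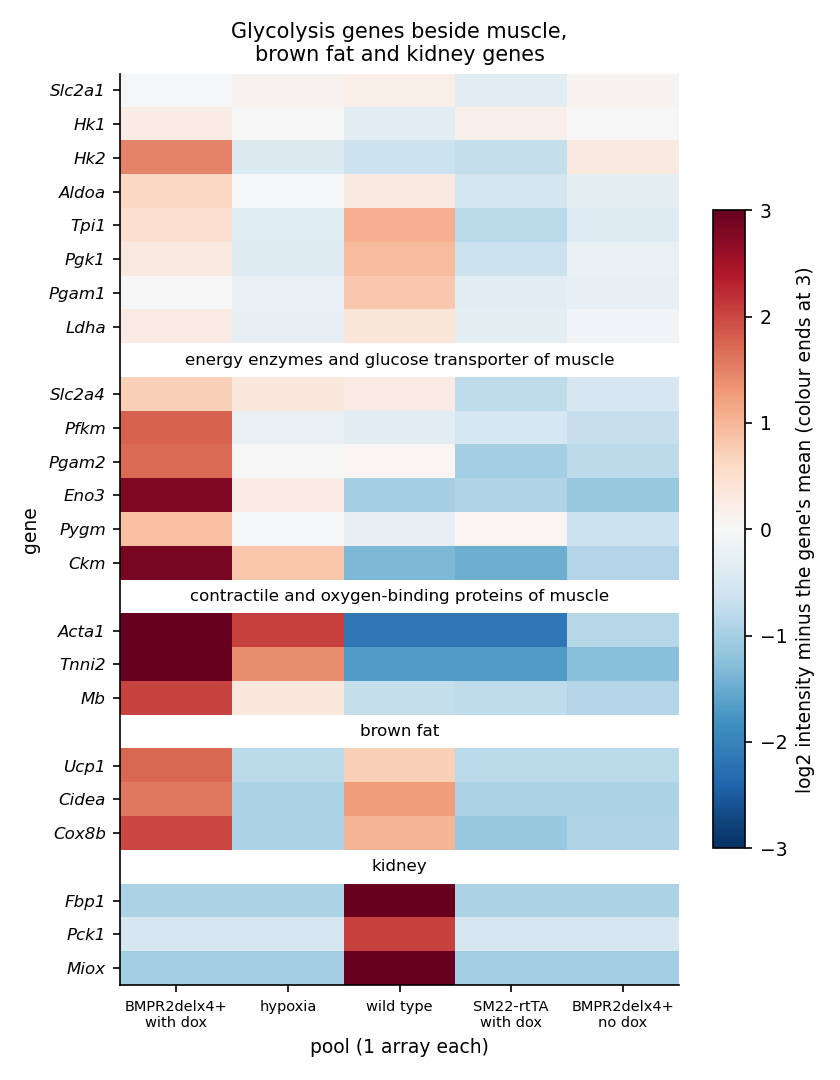
Log2 intensity minus the mean of each gene over the 5 pools (colour, ending at 3), with values under the noise floor raised to it; rows are the 8 measured glycolysis genes above, then genes of muscle, brown fat and kidney, and columns are the pools. Hk2, Aldoa and the muscle genes are red in the induced column, and Tpi1, Pgk1 and Pgam1 are red with the kidney genes in the wild-type column.

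The rest of the pathway was then followed in the induced pool. Of 15 measured other glycolysis genes 0 were lower than in the uninduced pool, against 2.57% of all measured genes, and 6 were higher, against 5.04%. Besides Eno3, Pgam2, Pfkm and Slc2a4 these were the lactate transporter Slc16a1 (1211 in the induced pool against 568, log2 ratio 1.09) and Ldhb, the lactate dehydrogenase subunit of heart and kidney (3022 against 1943, 0.64). The list median was 0.12, and the pyruvate kinase Pkm (3447 against 2554, 0.43) and the phosphofructokinases Pfkl (0.12) and Pfkp (-0.16) were under 1.5-fold. In the pyruvate dehydrogenase group 7 of 8 were higher: the catalytic subunits Pdha1 (4174 against 2106, 0.99) and Pdhb, Dlat (0.90), Dld (0.94), the pyruvate carrier Mpc1, and the inhibitory kinases Pdk2 and Pdk4 (1425 against 741, 0.94). The median of that group was 0.87. Against SM22-rtTA 6 of the 8 were higher, with Pdk4 at a log2 ratio of 2.18, and 1 was lower, the inhibitory kinase Pdk3 at -0.63.

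Hypoxia for 4 weeks was set against wild type to ask what accompanies raised pressure without a transgene. None of the 8 genes was at least 1.5-fold higher, against 7.60% of all measured genes, and 4 were lower, against 11.9%: Tpi1 (2.68-fold), Pgk1 (2.53-fold), Pgam1 (2.03-fold) and Ldha (1.53-fold). The Ldha ratio was under 1.5-fold with values as deposited (-0.57 on the log2 scale) and after quantile normalization (-0.43), which left 3 lower genes. The median log2 ratio was -0.48, against 0.03 over all measured genes. Hk1 (0.32) and Hk2 (0.21) had positive ratios. None of the 4 lower genes was under all 3 normal-pressure pools, as 4.82% of all measured genes were, since each was lower still in SM22-rtTA. Tpi1 was both higher with induction and lower in hypoxia, as were 1.66% of all measured genes.

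Set against the mean of the transgenic normal-pressure pools, no gene of the 8 differed by 1.5-fold in either direction, where 12.2% of all measured genes were higher and 4.28% lower. The ratios ran from -0.23 for Hk2 to 0.35 for Aldoa, with a median of 0.06. With the uninduced pool alone as control, an alternative chosen after the data were examined, Hk2 was at least 1.5-fold lower in hypoxia. These comparisons share the hypoxic array. Wild type itself was at least 1.5-fold above the uninduced pool for 3 of the 8 genes (Tpi1, Pgam1 and Pgk1), against 17.0% of all measured genes, and lower for Hk2, against 13.1%. It was above SM22-rtTA for 5, against 17.6%, and lower for 0, against 10.2%. Those 5 were Tpi1 (1.87 on the log2 scale), Pgk1 (1.61), Pgam1 (1.14), Aldoa (0.83) and Ldha (0.66).

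Kidney genes were high in the same wild-type array, among them Miox, the inositol oxygenase of the proximal tubule, at 10416. The kidney enzymes of glucose synthesis, Fbp1 (7647), G6pc (2584) and Pck1 (1626), were above the floor in wild type and at the floor in the hypoxic pool and the other 3. Slc2a2, the glucose transporter of liver, kidney and pancreas, was at 691 in wild type and at the floor in hypoxia. The kidney list summed to 4329 in the hypoxic pool, against 81950 in wild type, 2107 in SM22-rtTA and 2389 in the uninduced pool. Ldhb, which is abundant in kidney and heart, was at 1400 in hypoxia and 5982 in wild type, with a log2 ratio of -2.10, and at -0.42 against the transgenic controls. The part of kidney RNA in the lower Tpi1, Pgk1, Pgam1 and Ldha of hypoxia against wild type was not tested. All 8 genes of the pyruvate dehydrogenase group were at least 1.5-fold lower in hypoxia than in wild type, Pdk2 at 336 against 1215 (-1.85) and Dld at 377 against 1256 (-1.73) with the largest ratios, and 1 of 8, Dlat (-0.73), was lower against the transgenic controls.

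Other targets of HIF were followed in the same comparisons. In the hypoxic pool 1 of 26 measured genes was higher than in wild type and 4 were lower, shares near those of all measured genes (7.60% and 11.9%). The higher one was Lox, the collagen cross-linking enzyme, at 2399 against 1211 (0.99). The lower ones included Ak4, a mitochondrial adenylate kinase, at the floor against 2993 and so at least 10.8-fold lower, Ndrg1 at 695 against 4835 (-2.80) and the carbonic anhydrase Car12, at the floor against 748 and so at least 2.71-fold lower. Ak4 and Car12 were above the floor in wild type alone among the 5 pools. Against the transgenic controls 0 of 26 were higher, where 12.2% of all measured genes were, and 1, the endothelin Edn1 (-0.69), was lower, where 4.28% were, with a list median of -0.17. Vegfa, the vessel growth factor, had log2 ratios of 0.31 and 0.09 in these comparisons, and the oxygen sensor Egln1 0.32 and 0.22. In the induced pool 0 of 26 were higher than in the uninduced pool, against 5.04% of all measured genes, and 4 were lower, against 2.57%. The lower ones were Lox (2.01-fold lower), Angptl4 (-0.86), P4ha1 (-0.65) and Adm, the last at the floor. Lung endothelial genes were lower there too, 5 of 12 by at least 1.5-fold, and their part in this was not tested. Against SM22-rtTA 3 of 26 were higher (Pfkfb3 0.83, Kdm3a 0.78 and Bnip3 0.71) and 2 lower, with Cxcr4 at -0.60. These shares were near those of all measured genes (9.72% and 6.11%).

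**Figure D4:**
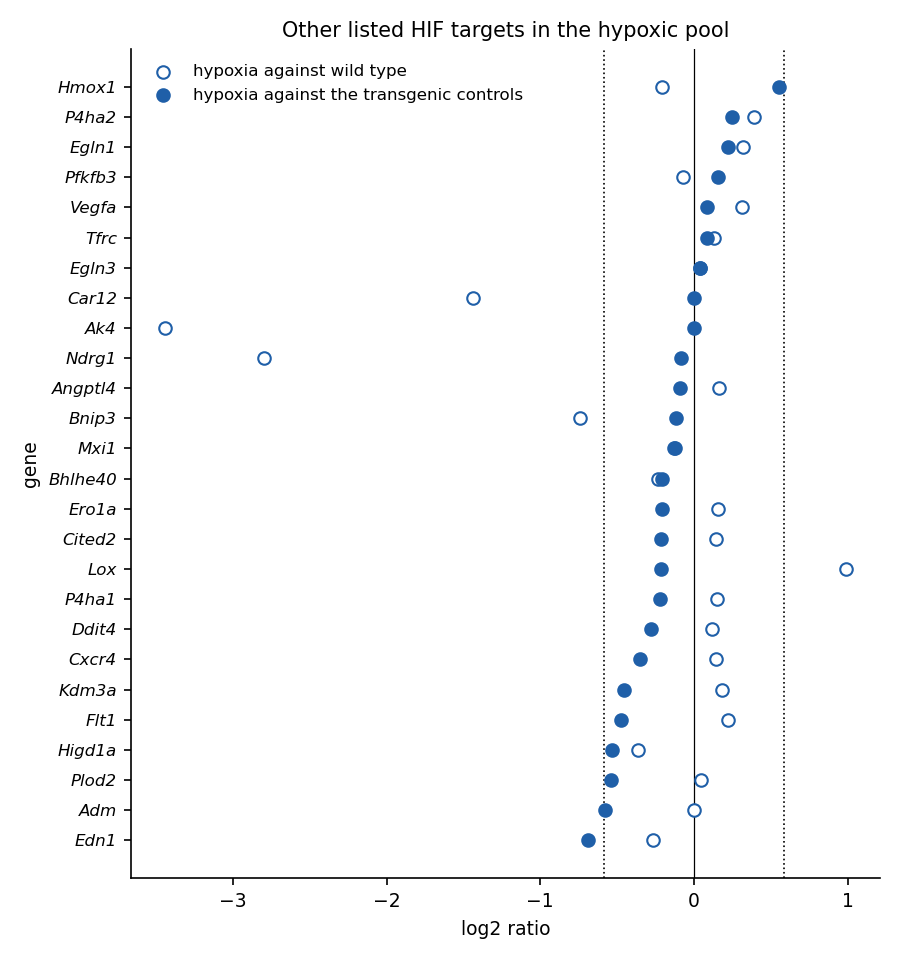
Log2 ratio of the 26 measured other HIF targets in the hypoxic pool, with wild type (open) or the mean of the transgenic controls (filled) as control; dotted lines mark 1.5-fold. Ak4, Ndrg1 and Car12 lie far left as open points and near 0 as filled ones (Ak4 and Car12 because both sides are at the floor), and no filled point lies right of the upper line.

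Of the 15 other glycolysis genes, 1 was higher and 2 were lower in hypoxia than in wild type, near the shares of all measured genes (7.60% and 11.9%). Against the transgenic controls 4 were higher, where 12.2% of all measured genes were, and 1 was lower, where 4.28% were. Eno3 was at 738 in the hypoxic pool, against 315 in wild type, 335 in SM22-rtTA and 288 in the uninduced pool, with a log2 ratio of 1.23 to wild type and of 1.25 to the transgenic controls. Ckm was at 2590, against 575 in wild type, and 10 of the 25 skeletal muscle genes were at least 1.5-fold above wild type and 1 was below it; their part in the higher Eno3 was not tested. Slc2a3, the neuronal type glucose transporter, was at 295 in hypoxia, against the floor in wild type, 515 in SM22-rtTA and 878 in the uninduced pool, a log2 ratio of -1.19 against the transgenic controls. Pklr, the pyruvate kinase of liver and red cells, was at 594 in hypoxia, against 631 in wild type, 309 in SM22-rtTA and 293 in the uninduced pool.

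Set side by side, the induced pool was at least 1.5-fold above the hypoxic pool for 4 of the 8 genes, against 10.7% of all measured genes, and lower for 0, against 11.4%. These were Hk2 (1.92 on the log2 scale), Tpi1 (0.84), Aldoa (0.70) and Pgk1 (0.68). All 25 skeletal muscle genes were higher in the induced than in the hypoxic pool as well.

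**Figure D5:**
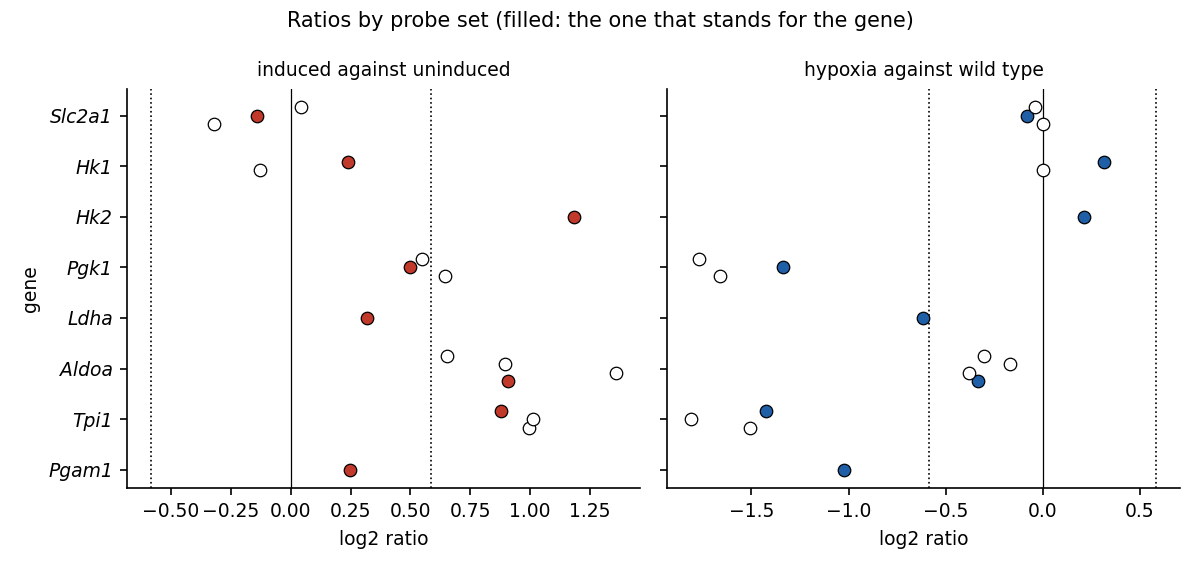
Log2 ratio of every probe set of the measured genes that was above the floor in at least 1 pool, for induced against uninduced (left) and hypoxia against wild type (right); the filled point is the probe set that stands for the gene and dotted lines mark 1.5-fold. The 4 Aldoa, 3 Tpi1 and 3 Pgk1 probe sets lie on the same side of 0 within each panel.

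Where a gene had several probe sets they were compared. The 4 Aldoa probe sets had log2 ratios of 0.65 to 1.36 for the induced against the uninduced pool, and the 3 Tpi1 probe sets 0.88 to 1.01. For Pgk1 they ran from 0.50 to 0.64, so that 1 of 3 passed 1.5-fold. In hypoxia against wild type the 3 Pgk1 probe sets had ratios of -1.77 to -1.34 and the 3 Tpi1 probe sets -1.81 to -1.42. Against the transgenic controls the probe sets of Pgk1 ran from -0.47 to 0.04. All Aldoa probe sets and the ones that stand for Pgk1 and Tpi1 are of the type marked x, whose probes can match related transcripts, so near-identical copies of these genes may share in their values. The other Hk1 probe set was above the floor in 2 pools only, at 391 in SM22-rtTA and 302 in the uninduced pool, and was at 189 in the induced pool. Hk2, Ldha and Pgam1 rest on 1 probe set each.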

How the data were processed

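Whole-lung RNA of 5 mouse pools was measured on 1 array each. Per the labels and design text, total RNA was pooled and labelled with biotin. The authors deposited linear intensities, 1 for each of 22626 probe sets; how they were summarised, background-corrected and scaled is not given in the sources used here. No value lay under 50 and 9.85% to 12.5% of values per array were exactly 50, a lower limit already in the deposited intensities.

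Log2 intensities were shifted so that all arrays shared a median over 9046 probe sets above every array's median (shifts -0.11 to 0.13). The noise floor was the 50th percentile of all shifted values (276), and lower values were raised to it for ratios. Gene names came from the platform annotation and were brought up to date with RefSeq (GRCm38.p6) by gene ID: 20380 probe sets had 1 gene, 691 several and 1555 none listed. Of 12393 genes, 8590 passed the floor in some pool and are called measured.

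A gene counted as higher or lower at 1.5-fold or more with the higher pool above the floor. Named genes were the 10 members, from each list the up to 4 with the largest ratio past 1.5-fold in each comparison (or the 2 brightest where none was), the 5 nearest to the member with the widest range, and up to 4 of the brightest markers of a list in the pool where it was highest. Gpi1, Gapdh and other list genes without a probe set of their own were not used. Genes named beyond this rule (Pkm, Pfkl, Pfkp, Slc16a1, Ldhb in the induced pool, Pdk3, Vegfa, Egln1, Fbp1, G6pc and Pck1) were chosen after their values were seen. The members and lists were chosen with earlier results of these data known. No test was possible with 1 array a group, and the number of arrays limits the precision. Calls were tested on simulated data only as a check of the code. That check gives no error rate for 1.5-fold calls or for genes near the floor in these pools. Alternatives covered scaling, floor, pseudocount, probe set summary, fold and controls. Analyses used Python 3.11.15, numpy 2.4.6, pandas 2.3.3 and matplotlib 3.10.9.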

Additional observations from a re-analysis of the deposited data

Results flagged for a closer look

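Tpi1 differed in opposite directions in the matched comparisons. It was 0.88 above the uninduced pool with induction and 1.42 below wild type in hypoxia on the log2 scale (log2 ratios 0.88 and -1.42), a difference of 2.30. The difference between the comparisons was not tested, since each rests on 1 array a group. Of all measured genes, 1.66% were at least 1.5-fold higher in the first comparison and lower in the second. Against SM22-rtTA the induced ratio was 1.28, and against the transgenic controls the hypoxic ratio was 0.24.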

How the results depend on the processing

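Of 232 recomputed member ratios, 174 moved by at most 0.1 on the log2 scale and 58 by more. The sign changed in 13, all of ratios of at most 0.24 at the setting used (Slc2a1, Hk1, Pgk1 and Pgam1). Of the 82 recomputed from a ratio past 1.5-fold, 0 changed sign and 2 were no longer past it, both of Ldha in hypoxia against wild type (-0.57 as deposited and -0.43 after quantile normalization). The Hk2 ratio of the induced pool to SM22-rtTA was 1.35 with the floor at the 70th percentile. For the induced against the uninduced pool the count of higher genes fell to 1 (Hk2) at 2-fold. For hypoxia against wild type the median was -0.30 after quantile normalization and -0.34 with the floor at the 30th percentile, where Pdk1 enters, and 0 of the 4 lower genes remained when they also had to lie outside the normal-pressure pools. For the induced pool against SM22-rtTA the median was 0.52 with the lower floor, and 2 genes (Hk2 and Aldoa) were higher when they had to lie above all normal-pressure pools. For hypoxia against the transgenic controls the median was -0.11 with values as deposited, a setting that moved the median of all genes to -0.12, -0.11 with the mean of probe sets and 0.27 with SM22-rtTA alone as control; with the uninduced pool alone 1 gene was lower. The cause of these shifts was not tested. The split of all called genes in that last comparison depended on the scaling, 1044 higher and 368 lower at the scaling used and 744 and 868 as deposited; for hypoxia against wild type it was 653 and 1021, and 922 and 913 after quantile normalization. No paired analysis was possible because each group has 1 array. Ratios near the floor, as for Hk2 in 3 pools, are limited by the signal over background.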
